A study of Sus scrofa with 3 samples.

Results

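The subunits of the phagocyte NADPH oxidase were followed by RNA-Seq in visceral adipose tissue (VAT) of Chinese Wuzhishan miniature pigs. The genes were picked by name, with no measured value in the rule, as NCF1, NCF4, CYBA, GP91-PHOX and RAC2. Earlier results of these data were known when they were picked. Of these 5 genes, 4 had a value among the 22826 genes classed as mRNA, and CYBA, the gene of the p22phox subunit, was not analysed here. GP91-PHOX is the name under which CYBB, also called NOX2, appears in pig.

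All groups were male pigs of one breed, 6 to 7 months old on receipt, that had 7 weeks on a standard diet and then 12 weeks on a diet rich in fat and cholesterol (HFC). Intact males (IM) had skin incisions only, castrated males (CM) were gonadectomized, and castrated males with testosterone replacement (CMT) were gonadectomized and injected each week with 10 mg/kg testosterone propionate in corn oil. The castrated pigs were thus compared with intact pigs on the same HFC diet, and no group on a standard diet was analysed. The tissue was retroperitoneal fat, and equal amounts of total RNA from each pig were combined into 1 library per group. The methods of the study give 4 pigs per pool and the sample labels 4 to 6. With 1 library per group there was no replicate error, no difference between groups could be tested, and every interval given here covers counting error only.

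In phagocytes, GP91-PHOX and p22phox form the membrane-bound core of the oxidase, a flavocytochrome that passes electrons from NADPH to oxygen and so makes superoxide. Cytosolic subunits such as NCF1 (p47phox) and NCF4 (p40phox) wait in the cytosol and move to the membrane when the cell is stimulated, together with a small GTPase of the RAC family. NCF1 is the organizer that docks on p22phox, and NCF4 binds a phospholipid of the phagosome membrane. RAC2 is the RAC protein of blood-forming lineages and is also used by lymphocytes. In fat, these genes are known mainly from macrophages and other leukocytes between the adipocytes.

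The study lists primer pairs for quantitative PCR of NCF1 and GP91-PHOX, which are also the subunits that differed most between the libraries below. The genes it reports from that assay include NCF1 and not GP91-PHOX, and they were chosen with the RNA-Seq results known. By that assay the study reports NCF1 as higher in CM and lower in CMT. The pairs are printed 5′ to 3′ because they are the study's designed sequences for these transcripts, and values from that assay were not analysed here. The letters are all in lower case since no base was singled out.
NCF1 forward: aagaacgagaatggctggtg
NCF1 reverse: ctccaagagggcagtgtagg
GP91-PHOX forward: gcctgtggctgtgataagc
GP91-PHOX reverse: cagaccgacttgagaatggag

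Expression levels were deposited as UQRPKM, which is reads per kilobase of gene scaled to the upper quartile of reads per gene in the library. Whole reads behind the values were recovered for 100% of the 20838 genes above 0 and came to 16611931, 15561124 and 15106608 in IM, CM and CMT. Other cell types differed between these pools. The 8 liver markers summed to 15.7, 6857 and 22.4 UQRPKM in IM, CM and CMT, and the 10 skeletal muscle markers, of which TNNT3 and CKM were listed at 0 throughout, to 81.8, 65.0 and 5812. Markers of adipocytes were high in every library, with a sum of 134396, 126736 and 110774 UQRPKM over 6 genes in IM, CM and CMT. The part of these differences in the results below was not tested.

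NCF1 and GP91-PHOX were higher in the CM library than in both others, while NCF4 and RAC2 differed less between the libraries. NCF1 had 60.3, 136 and 63.9 UQRPKM in IM, CM and CMT, from 106, 228 and 110 reads. Its level in CM stood apart, and IM and CMT lay close to each other. The 95% Poisson interval of NCF1 ran from 119 to 155 UQRPKM in CM and from 49.4 to 73.0 in IM, so the intervals did not overlap. GP91-PHOX had 95.9, 147 and 82.5 UQRPKM in IM, CM and CMT, from 457, 668 and 385 reads. For this gene too CM was the highest library, with an interval from 136 to 159 that lay above that of IM, 87.3 to 105.

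NCF4 had 67.0, 73.0 and 63.2 UQRPKM in IM, CM and CMT, from 253, 263 and 234 reads. Its interval in CM, 64.5 to 82.4 UQRPKM, held the value in IM. RAC2 had 345, 364 and 304 UQRPKM in IM, CM and CMT, from 794, 797 and 685 reads. The intervals of RAC2 overlapped between IM and CM, at 322 to 370 and 339 to 390. That of CMT, 282 to 328, overlapped with IM but lay below that of CM. The order of the libraries was the same for NCF4, GP91-PHOX and RAC2, with CM first, IM next and CMT last, whereas NCF1 was slightly higher in CMT than in IM.

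**Figure D1:**
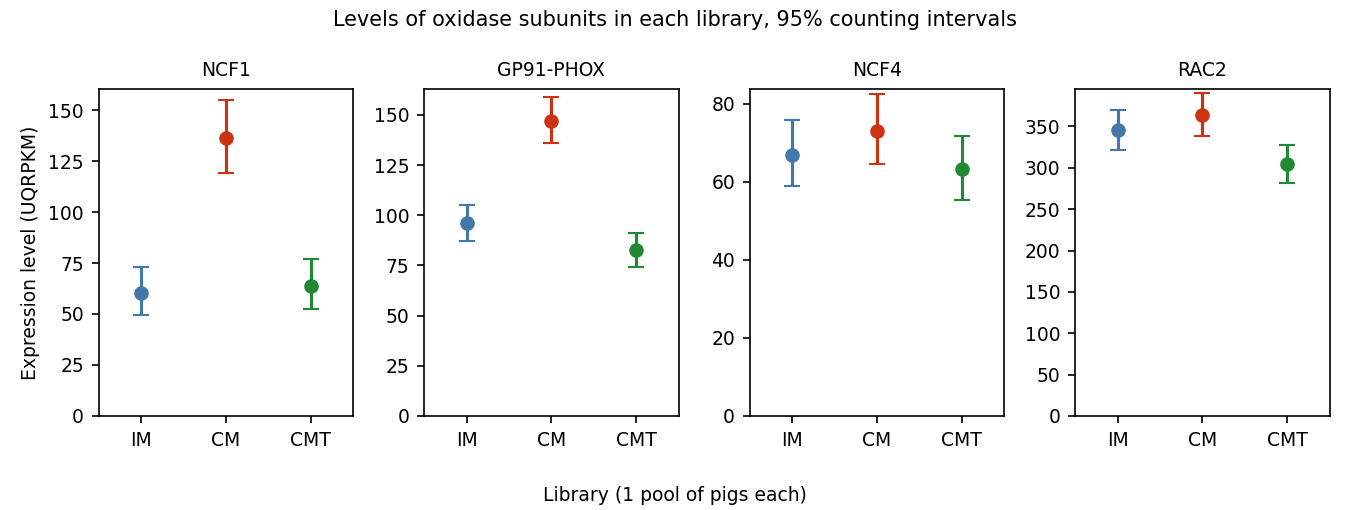
Level in UQRPKM (linear axis from 0) of NCF1, GP91-PHOX, NCF4 and RAC2 in the IM, CM and CMT libraries. Each point is 1 library and each bar its 95% Poisson counting interval. NCF1 and GP91-PHOX stand clear of the other libraries in CM, while the bars of NCF4 overlap in all 3 libraries.

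Levels per length could also be compared between genes within a library. RAC2 was the most abundant of the 4 subunits in every library and took 60.7% of their summed level in IM, 50.5% in CM and 59.2% in CMT. GP91-PHOX came next, with 16.9%, 20.4% and 16.1%. NCF1 held 10.6%, 18.9% and 12.4% in IM, CM and CMT, and NCF4 held 11.8%, 10.1% and 12.3%. In IM, NCF4 and NCF1 were neighbours whose intervals overlapped, whereas in CM NCF1 lay clear of NCF4 and overlapped with GP91-PHOX. RAC2 was above 84.8% of the mRNA genes with a value over 0 in IM and GP91-PHOX above 62.5%. In IM, CM and CMT, NCF1 was above 53.3%, 70.4% and 55.2% of these genes. The median of all such genes was 50.5, 50.6 and 49.8 UQRPKM in IM, CM and CMT.

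The comparison of CM with IM (CM/IM) addressed castration under the HFC diet. A gene was called higher or lower at a fold of 1.5 or more if neither of the libraries compared was under 1 UQRPKM. NCF1 and GP91-PHOX were called higher in CM, so 2 of the 4 subunits passed, against a background of 8.38% of 14123 mRNA genes. The study had already named both as upregulated under testosterone deficiency from these libraries. Their passing is therefore not independent of it, and the count is a description only. NCF1 was 2.26-fold higher, a log2 ratio of 1.17 with a 95% interval from 0.84 to 1.52, and stood above 97.3% of the genes compared. GP91-PHOX was 1.53-fold higher, a log2 ratio of 0.62 with an interval from 0.44 to 0.79, and stood above 92.1%. Its interval reached below the 1.5-fold limit, so GP91-PHOX passed narrowly. With the added condition that the interval leave out 0, the same 2 genes passed, and the background was 5.08%.

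NCF4 had a log2 ratio of 0.13 in CM versus IM with an interval from -0.13 to 0.38, and RAC2 one of 0.07 from -0.07 to 0.22. A difference within these ranges was not detectable at this depth. The median log2 ratio over the 4 subunits was 0.37, beside -0.06 over all mRNA genes compared.

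Testosterone replacement was set against castration alone by comparing CMT with CM (CMT/CM). This comparison shares the CM library with the last one, so a high or low value in CM moves both in opposite directions. NCF1 and GP91-PHOX, the subunits the study had named, were called lower in CMT, again 2 of 4, with a background of 9.97% of 14098 genes. The log2 ratio of NCF1 was -1.09 with an interval from -1.43 to -0.76, which put CM 2.13-fold above CMT. For GP91-PHOX it was -0.84 from -1.02 to -0.65, which put CM 1.78-fold above CMT. The background of genes called lower with an interval without 0 was 6.46%, and both genes met that condition. RAC2 had a log2 ratio of -0.26 with an interval from -0.41 to -0.11, short of the 1.5-fold limit. NCF4 had -0.21 with an interval from -0.47 to 0.05. The median of the 4 subunits was -0.55, beside -0.02 over all genes.

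Between CMT and IM, each of which also enters 1 of the comparisons above, 0 of 4 subunits were called in either direction. The background was 8.81% of 14151 genes called higher and 11.9% called lower. Scaling by the median of ratios turned this order around, with 1494 genes higher and 1357 lower against 1246 and 1690. NCF1 had a log2 ratio of 0.08 with an interval from -0.32 to 0.48, and NCF4 one of -0.08 from -0.35 to 0.18. GP91-PHOX had -0.22 from -0.42 to -0.02 and RAC2 -0.18 from -0.33 to -0.03, intervals that left out 0 only narrowly. Scaling by total UQRPKM or by the median of ratios, which adds 0.04 or 0.08 to each log2 ratio of this comparison, makes both intervals include 0. The median was -0.13, beside -0.08 over all genes.

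**Figure D2:**
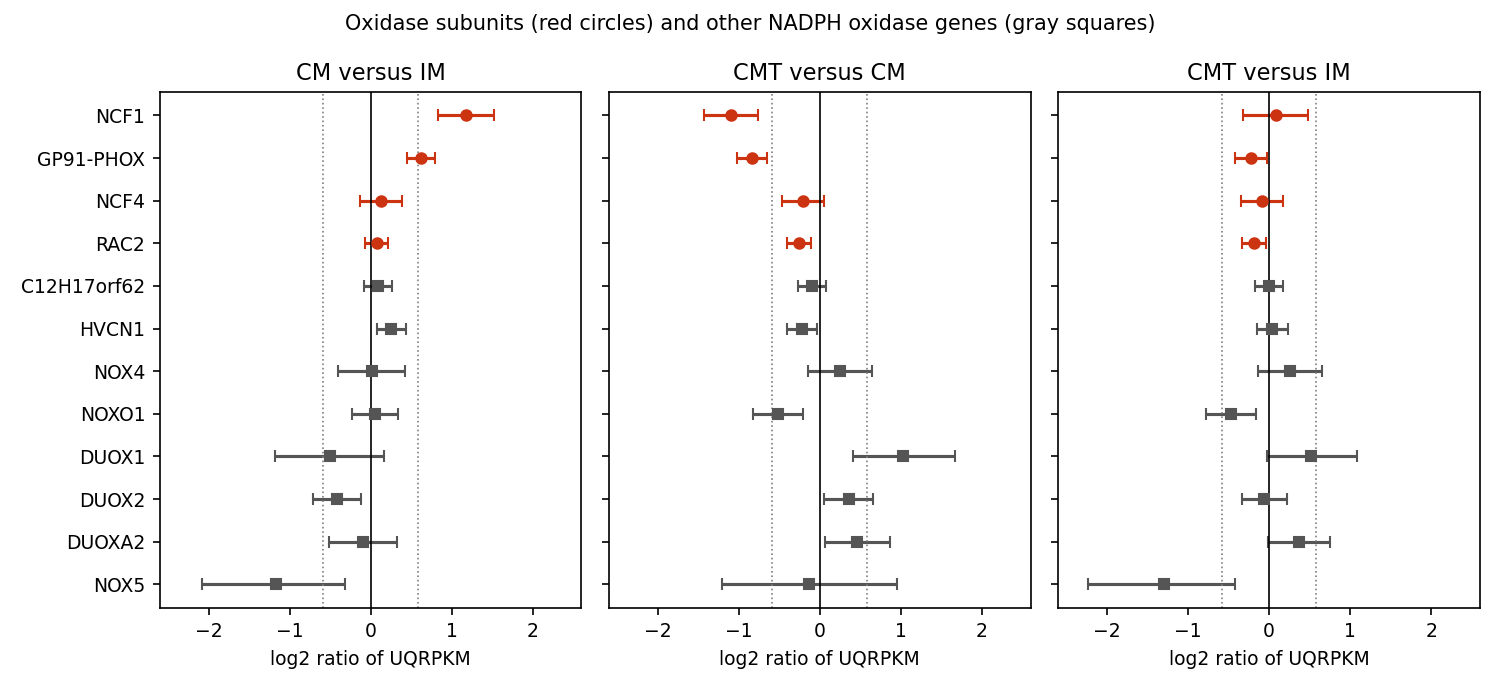
Log2 ratios of UQRPKM with 95% Clopper-Pearson counting intervals in the 3 comparisons, for the 4 subunits (red circles) and other NADPH oxidase genes (gray squares). Dotted lines mark the 1.5-fold limit. NCF1 and GP91-PHOX lie beyond it in CM versus IM and CMT versus CM, while NCF4 and RAC2 lie inside it in all 3 comparisons.

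Ratios between subunits within 1 library do not depend on how libraries were scaled to each other. NCF1 amounted to 0.90, 1.86 and 1.01 of the NCF4 level in IM, CM and CMT. The shift from IM to CM was 1.05 on the log2 scale, with an exact conditional interval from 0.62 to 1.48. NCF1 amounted to 0.175 of RAC2, 0.374 and 0.210 in IM, CM and CMT, a shift of 1.10 from IM to CM with an interval from 0.73 to 1.48. GP91-PHOX amounted to 0.278, 0.404 and 0.271 of RAC2, with a shift of 0.54 from 0.32 to 0.77.

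The levels of NCF4 and RAC2 kept nearly the same ratio, at 0.194, 0.201 and 0.208 in IM, CM and CMT. Their shift from IM to CM was 0.05 with an interval from -0.24 to 0.34. Of the 6 pairs among the 4 subunits, the interval of the shift left out 0 for 5 in CM versus IM, for 4 in CMT versus CM and for 0 in CMT versus IM. The pairs reuse the same 4 genes, so these shifts are not independent of each other or of the ratios above. The share over all pairs of genes was not computed, so the counts are a description only. NCF1 and GP91-PHOX moved unequally in CM versus IM, with a shift of 0.56 from 0.17 to 0.95. From CM to CMT their shift was -0.26 from -0.65 to 0.13, so a difference was not detectable there. RAC2 and NCF4 share a chromosome in the RefSeq annotation of pig assembly Sscrofa11.1, with 12 annotated genes between them, 9 of which are protein-coding.

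**Figure D3:**
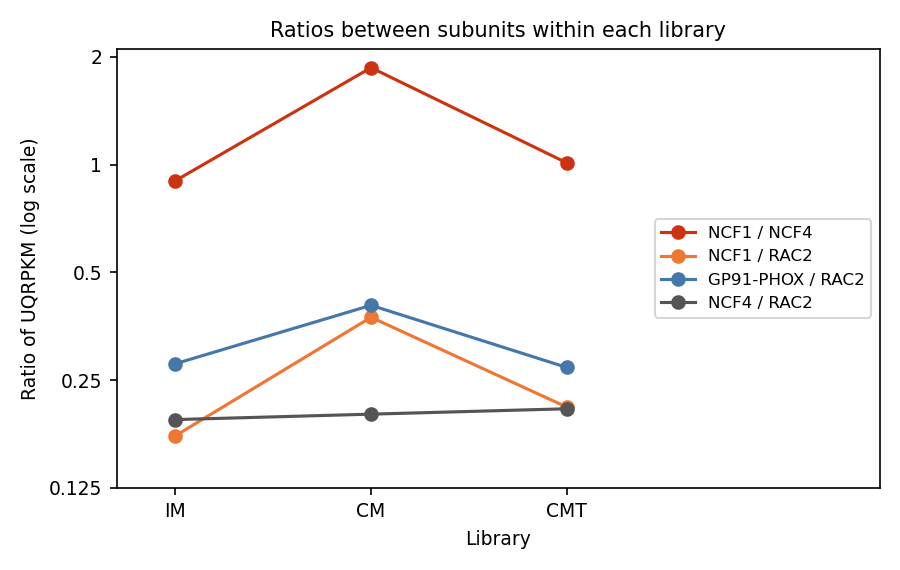
Ratio of UQRPKM between pairs of subunits within the IM, CM and CMT libraries, on a log axis. Lines join the values of one pair and stand for no order in time. NCF1 over NCF4 goes from 0.90 in IM to 1.86 in CM and 1.01 in CMT, while NCF4 over RAC2 stays between 0.194 and 0.208.

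The list of other NADPH oxidase genes held 15 names. Of these 13 had a value, and 10 of these were compared in CM versus IM. NOXA1, which had 5 reads in IM and 8 in CM, was called higher and NOX5 lower. NOX5 is a calcium-regulated oxidase and had 40, 17 and 16 reads in IM, CM and CMT, with a log2 ratio of -1.17 in CM versus IM from -2.08 to -0.31. NOXA1 and DUOX1 were called higher in CMT than in CM and 0 genes lower. DUOX1, a peroxide-making relative, had 49, 33 and 69 reads and a log2 ratio of 1.02 from 0.41 to 1.67. The median over the list was 0.03 for CM/IM and 0.08 for CMT/CM.

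C12H17orf62, the pig gene named for human C17orf62, is needed for stable gp91phox and p22phox protein. It had 185, 198 and 185 UQRPKM in IM, CM and CMT, with a log2 ratio of 0.09 in CM versus IM from -0.08 to 0.27. HVCN1 is a proton channel that balances the charge moved by the oxidase. Its level was 169, 202 and 173 UQRPKM, a log2 ratio of 0.26 in CM versus IM from 0.07 to 0.44. NOX4, a relative of GP91-PHOX found outside phagocytes, had 17.3, 17.4 and 20.7 UQRPKM and a log2 ratio of 0.01 from -0.40 to 0.42.

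RAC1 and NOX1 were listed at 0 in all 3 libraries. RAC1 is used by nearly every cell, so its listing at 0 cannot be read as absence, and the same caution holds for every gene listed at 0 throughout. RAC1 and RAC2 are close paralogs, how reads that map to both were counted is not given in the sources used here, and the effect on the level of RAC2 was not tested.

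Of the 17 regulators of the oxidase on the list, 16 had a value, and in CM versus IM 2 were called higher and 1 lower. SYK, a kinase downstream of Fc and integrin receptors, had 26, 59 and 32 reads in IM, CM and CMT. Its log2 ratio was 1.25 in CM versus IM from 0.56 to 1.98, and -0.92 in CMT versus CM from -1.59 to -0.28. PIK3CG, a lipid kinase used by chemoattractant receptors, was also called in both, at 0.65 from -0.04 to 1.37 and -0.63 from -1.34 to 0.07. PRKCB, a protein kinase C that phosphorylates NCF1, was called lower in CM, at -0.63 from -1.35 to 0.07. ARHGDIB, RAP1A and PRKCD had the most reads of the list and were called in neither comparison. The median over the list was -0.04 for CM/IM and -0.25 for CMT/CM.

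Among receptors that trigger the oxidase, 10 of 13 had a value. CLEC7A, with 15 reads in IM and 22 in CM, was the 1 gene called higher in CM versus IM, and 0 were called lower. ITGAM and FCGR1A were called lower in CMT than in CM and 0 genes higher. ITGAM, the alpha chain of the integrin CR3, had 108, 138 and 73.5 UQRPKM in IM, CM and CMT, and its log2 ratio in CMT versus CM was -0.91 from -1.11 to -0.72. FCGR1A, an Fc receptor, had 29 reads in CM and 16 in CMT, and its interval included 0. The more abundant ITGB2, FCGR2B and FCER1G were not called in these comparisons. The median over the list was 0.16 for CM/IM and -0.22 for CMT/CM.

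The level of a leukocyte gene in whole fat depends on both the number of such cells and the RNA per cell, and these cannot be told apart in bulk samples. Markers of phagocytes were therefore set beside the subunits. Of 16 macrophage markers 15 had a value, CD163 was listed at 0 in all libraries, and the summed level was 9399, 8143 and 7738 UQRPKM in IM, CM and CMT. The sum was thus highest in IM and not in CM. C1QC, C1QA and LAPTM5 held most of it, with 3222, 2833 and 1354 UQRPKM in IM, and each was lower in CM. By gene, 8 of the 14 markers compared had a log2 ratio above 0 in CM versus IM and 6 below. In CM versus IM, 4 of the 14 markers compared were called higher and 0 lower, with a median log2 ratio of 0.10. The median for CMT/CM was -0.10, with 0 called higher and 4 lower.

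The macrophage markers did not move as one group. LOC100520753 (CD68), a lysosomal glycoprotein, had log2 ratios of 1.31 for CM/IM and -0.95 for CMT/CM, and EMR1, an adhesion receptor of macrophages, had 1.04 and -1.61. MARCO, a scavenger receptor, had 1.17 and -1.82, and LYZ, which encodes lysozyme, had 1.24 and -1.88. These 4 were called in both comparisons, as NCF1 and GP91-PHOX were. LOC100520753, EMR1 and the S100 genes named next had also been singled out by the study from these libraries and are not independent of it. The markers with the most reads, the complement gene C1QC, LAPTM5 and the complement gene C1QA, were not called in either. Of the 14 markers, 12 had a lower log2 ratio than NCF1 in CM versus IM and 10 a lower one than GP91-PHOX, while 7 lay below and 7 above RAC2 and NCF4. The median of the subunits minus that of the macrophage markers was 0.27 for CM/IM and -0.45 for CMT/CM. Against the neutrophil markers described next, the same differences had the opposite sign, at -1.58 and 0.60. None of them has a test with 1 library per group.

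Neutrophils carry the same oxidase, and 10 of 12 neutrophil markers had a value. Their summed level was 561, 4987 and 1067 UQRPKM in IM, CM and CMT, so CM was highest as for NCF1 and GP91-PHOX. In CM versus IM, 4 of the 6 markers compared were called higher, none was called lower and the median was 1.95. The calcium-binding proteins S100A8, S100A9 and S100A12 held most of the sum, with log2 ratios of 3.81, 3.76 and 2.92. ELANE, also on the list, had 1 read in CM and none in the others. MPO, which is not on this list, encodes the peroxidase of neutrophil granules and had 1 read in IM only. Counts this low are not read as absence of neutrophils. CSF3R was listed at 0 in all libraries, which is not read as absence. Between CMT and IM, 4 of 7 neutrophil markers and 0 of 4 subunits were called higher, beside 8.81% of 14151 mRNA genes. At that share, 0 of 4 does not set the subunits apart from other genes. CXCR2 had 25, 22 and 21 reads in IM, CM and CMT. The part of either marker list in the levels of the subunits was not tested.

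For RAC2, which lymphocytes also use, the 16 lymphocyte markers summed to 959, 846 and 885 UQRPKM in IM, CM and CMT. In CM versus IM, 0 of them were called higher and 2 lower, namely LCK and CD79B, and the median log2 ratio was -0.12. For CMT/CM, 4 were called higher and 2 lower, and the median was 0.15. RAC2 itself had 345, 364 and 304 UQRPKM in IM, CM and CMT, with intervals that overlapped between IM and CM but not between CM and CMT. The part of lymphocytes in its level was not tested.

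**Figure D4:**
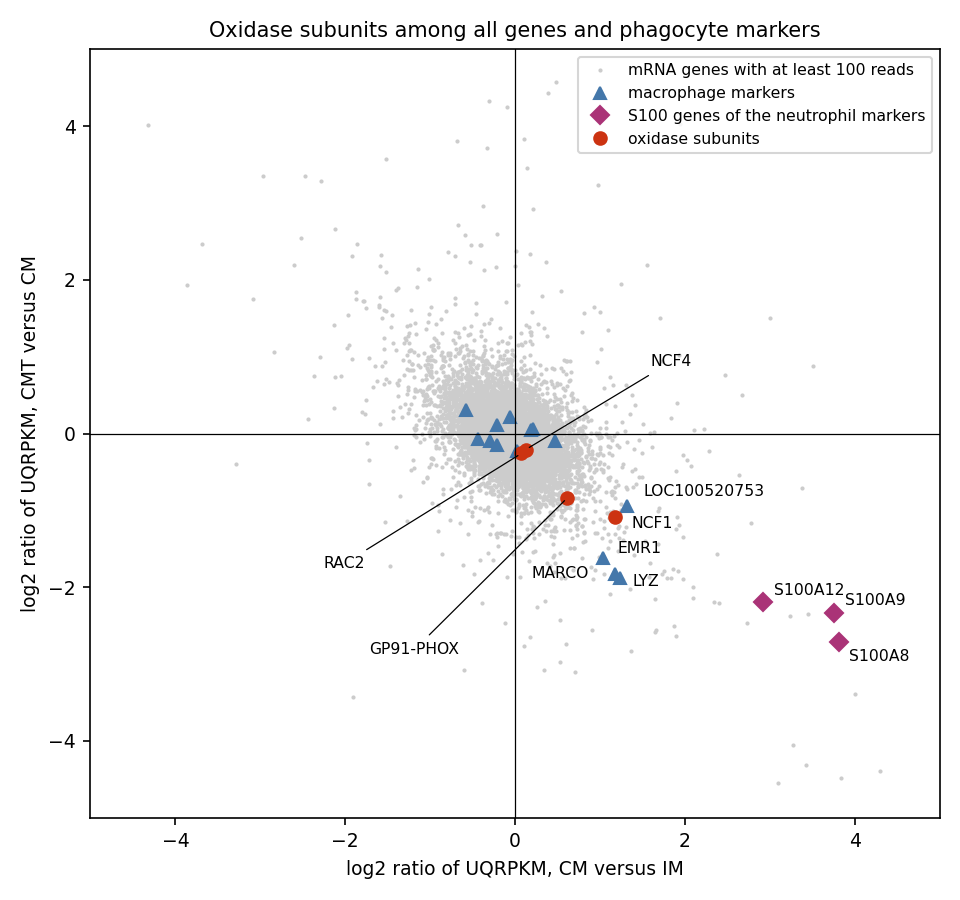
Log2 ratio in CM versus IM (horizontal) and in CMT versus CM (vertical) for 11366 mRNA genes with at least 100 reads, of which 33 lie outside the plotted range. CM enters both axes with opposite sign, so genes high or low in CM fall along the descending diagonal by construction. NCF1 and GP91-PHOX lie to the lower right with LOC100520753, EMR1, MARCO and LYZ, while NCF4 and RAC2 lie near the centre with the other macrophage markers.

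The genes most like the subunits were those at the smallest distance from the subunits' median point, 0.37 for CM/IM and -0.55 for CMT/CM, in the plane of these log2 ratios. Over the 3 libraries, 11362 other mRNA genes with at least 100 reads were ranked. The 8 nearest were CCDC167, TRAPPC2, MFNG, LOC100625751, DUSP19, TAMM41, DPH3 and LOC100739094, at distances from 0.0060 to 0.0239. MFNG had 3289, 4222 and 2887 UQRPKM in IM, CM and CMT. None of the 8 was a phagocyte marker or oxidase gene of the lists used here. For single subunits the nearest gene was PON2 for NCF1, ARNTL2 for GP91-PHOX, DECR2 for NCF4 and CCBL2 for RAC2. PON2 had 499, 1135 and 521 UQRPKM in IM, CM and CMT, with log2 ratios of 1.19 and -1.12. With 3 libraries many genes share any one pattern, and the likeness is a description only.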

How the data were processed

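RNA-Seq values of 3 pooled VAT libraries, 1 each for IM, CM and CMT, were analysed, and groups were taken from the sample titles. Per the methods of the study, Ion Proton single-end reads were filtered, mapped to the pig genome Sscrofa 10.2 with MapSplice and turned into UQRPKM. The authors deposited these RPKM values, scaled to the upper quartile of each library, with 1 value per gene. The counting tool and gene annotation are not given in the sources used here. Gene positions are not given because the annotation at hand, Sscrofa11.1, is of another build.

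Gene lengths of up to 120000 bases were tried in rising order, and the first that turned a gene's UQRPKM into whole reads in every library, within a relative error of 2e-08, was kept. The upper quartiles were 149, 142 and 146 in IM, CM and CMT. Reads that share a common factor can be too low by it. Recovery and calls were tested on simulated data. Log2 ratios of UQRPKM without a pseudocount gave all main results. Reads gave exact 95% intervals (Poisson for levels, Clopper-Pearson for ratios, conditional odds ratio for shifts between genes), which cover counting error only, since amplified reads are not independent molecules. The thresholds followed those of the study (1.5-fold, 1 UQRPKM in both libraries) without its test, because 1 library per group has no replicates.

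The genes and lists were chosen with earlier results of these data known. Of each list, the text names the 3 genes with the most reads, those past 1.5-fold with at least 30 reads in the pair of libraries, and those at 0 throughout, and RAC1 and NOX4 always. Results of some other genes of the lists are not reported here, though list counts include them. NOXA1, ELANE, MPO and CXCR2 fall outside this rule and were named after their values were seen. The planned motif search was not run, as no promoter sequence was used here. Python 3.11.15, numpy 2.4.6, scipy 1.17.1, pandas 2.3.3 and matplotlib 3.10.9 were used.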

Additional observations from a re-analysis of the deposited data

How the results depend on the processing

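Scaling by total UQRPKM or by the median of ratios, a pseudocount of 1, no minimum, a minimum of 10 UQRPKM and the requirement of an interval without 0 left the number of called subunits at 2 for CM/IM, 2 for CMT/CM and 0 for CMT/IM. A 2-fold limit left 1 in each of the first comparisons. All 36 log2 ratios of single subunits under another scaling or a pseudocount lay inside their counting intervals, and the 9 planned for CYBA were not run because it had no value. In the difference between the medians of subunits and macrophage markers, log2 ratios of sums gave 0.55 in CM versus IM, and neutrophil markers in place of macrophage markers turned it to -1.58 for CM/IM, 0.60 for CMT/CM and -0.96 for CMT/IM. Counts of all mRNA genes rest on the limits. Called higher in CM versus IM were 490 genes with a minimum of 10 UQRPKM, 545 at 2-fold and 717 with an interval without 0, against 1184, and called lower were 691, 594 and 939, against 1473. In CMT versus CM these were 566, 596 and 837 higher, against 1343, and 669, 629 and 911 lower, against 1406. In CMT versus IM they were 529, 560 and 745 higher, against 1246, and with the first pair of these limits 894 and 602 lower, against 1690. No library could be left out, and no paired analysis was possible because each group is 1 library.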

Other observations

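Of 8 enzymes on the list that handle superoxide and peroxide, 7 had a value, and their levels ranged from MPO, with 1 read in IM, to GPX3. CAT, which encodes catalase, had 16538, 17190 and 16087 UQRPKM in IM, CM and CMT. GPX1, a glutathione peroxidase, had 12103, 14147 and 12533. GPX3, the secreted glutathione peroxidase, had 26408, 11852 and 17380 in IM, CM and CMT and was the 1 gene of the list called in CM versus IM, with a log2 ratio of -1.16 and an interval from -1.18 to -1.14. Its CMT/CM log2 ratio was 0.55 from 0.53 to 0.57, just under the 1.5-fold limit. Of the 6 genes compared, 0 were called in CMT versus CM. The median of the list was -0.05 for CM/IM and -0.07 for CMT/CM.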
